A study of Mus musculus with 36 samples.

Results

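The genes described here are those of systemic iron homeostasis and hepcidin, followed through mouse liver development. The list holds 10 gene symbols, Hamp, Hamp2, Tfr2, Tfrc, Trf, Slc40a1, Fth1, Ftl1, Hfe2 and Bmp6, and was matched by symbol to the 21889 genes of the expression table. Of these, 9 were found, and Tfr2, which encodes transferrin receptor 2, was not analysed here. Livers came from male C57BL/6 mice without any treatment, 3 mice at each of 12 ages, 36 in all. The ages were Day -2 (before birth), Day 0 (just after birth, before the first milk), Days 1, 3, 5, 10, 15 and 20 (suckling) and Days 25, 30, 45 and 60 (after weaning at 21 days). Mice were drawn from several litters and each library is 1 liver, so the spread within an age includes differences between animals. Expression is given in FPKM, the fragments of a gene divided by its length and by the mapped reads of its library, which allows levels of different genes to be set beside each other.

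Iron leaves cells through ferroportin, and the liver hormone hepcidin controls how much of it stays at the cell surface. Hepatocytes make hepcidin when bone morphogenetic proteins such as BMP6, released mainly by endothelial cells of the liver sinusoids, act on receptors that include hemojuvelin, and when inflammation signals through STAT3. Circulating iron is carried by transferrin, enters cells through the transferrin receptor, and is stored in ferritin. In the fetus the liver is also the place where red blood cells are made, and their precursors take up most of the body's iron.

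In these livers, Hamp mRNA rose at birth, stayed high until Day 3, was lowest at Days 10 and 15, and was higher again in every mouse from Day 20 on. Hamp2 was at most 1.12 FPKM in any mouse up to Day 5 and reached the level of Hamp only at Days 15 to 25. Tfrc was highest before birth and lowest after weaning, Slc40a1 peaked at Days 1 to 5, and both ferritin mRNAs were lowest at Days 10 and 15. In the limma test on log2(FPKM + 1), with Benjamini-Hochberg adjusted p under 0.05, all 9 genes differed from Day 60 in at least 1 age, as did 90.7% of all 11149 genes tested. Being called in that sense therefore sets the iron genes apart from few other genes, and the description below rests on when, in which direction and by how much each one moved.

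The 2 hepcidin genes are neighbours on mouse chromosome 7, and their promoters are shown because the genes differ most in timing while these sequences are nearly the same. In mm9, Hamp lies at 31727390 to 31729036 and Hamp2 at 31707391 to 31709200, both on the minus strand and 18189 bases apart. The 250 bases before each start, from RefSeq (GRCm38.p6, minus strand, chr7:30944030-30944279 for Hamp and chr7:30924182-30924431 for Hamp2), are given 5′ to 3′ with 2 stretches in capitals. The first is the word GGCGCC of Hamp and the bases aligned to it in Hamp2. GGCGCC is known as the core of the BMP-responsive element of hepcidin promoters. The second is a match to TTCNNNGAA, the kind of site that STAT3 binds.
Hamp: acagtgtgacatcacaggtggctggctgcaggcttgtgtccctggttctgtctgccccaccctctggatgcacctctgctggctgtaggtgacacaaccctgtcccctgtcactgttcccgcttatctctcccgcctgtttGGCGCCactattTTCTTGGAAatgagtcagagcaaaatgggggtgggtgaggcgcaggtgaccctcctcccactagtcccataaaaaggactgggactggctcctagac
Hamp2: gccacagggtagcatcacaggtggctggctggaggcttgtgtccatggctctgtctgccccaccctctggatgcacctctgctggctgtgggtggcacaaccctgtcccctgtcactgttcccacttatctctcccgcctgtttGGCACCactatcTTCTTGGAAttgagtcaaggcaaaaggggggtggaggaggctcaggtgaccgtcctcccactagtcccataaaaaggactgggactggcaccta

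Over 247 aligned bases the 2 promoters were identical at 227 (91.9%), with 20 substitutions. The GGCGCC word begins 109 bases before the start of Hamp, and Hamp2 carries the substitution G4A in it, counted from 1 at the first G of the word on the gene's strand. The STAT-type match begins 97 bases before the start of Hamp and 94 before that of Hamp2, and its letters were the same in both. The 2 matches do not overlap. Searched on both strands in the same 250 bases of 32851 promoters, GGCGCC was found in 9.59% and TTCNNNGAA in 7.02%. Tfrc also held GGCGCC in 1 of its promoters. These are matches of letters only, and no binding was measured here.

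Because the mRNAs are also alike, the separation of their reads matters. Hamp (392 bases) and Hamp2 (437 bases) shared no window of 100 bases, the length of 1 read, but 129 of 293 Hamp windows lay within 2 mismatches of a Hamp2 window. In the 3 mice of Day 1, Hamp2 nevertheless made up only 0.0194% to 0.0496% of the summed FPKM of both genes while Hamp stood at 384 to 876 FPKM. Spillover of Hamp reads into Hamp2 can thus be no larger than that share in those mice. Spillover in the other direction was not tested, since no age had Hamp2 without Hamp.

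Hamp, the main hepcidin gene, had 5.58, 9.72 and 6.81 FPKM in the 3 mice at Day -2. At Day 0 the mice had 670.4, 35 and 96 FPKM, all above the prenatal livers but far apart from each other.
Mean Hamp at Day 0 was 36.3-fold that at Day -2 (log2 difference 4.02, SE 1.13, limma adjusted p = 0.00391). Without the Day 0 mouse with 670.4 FPKM, the mean of the other 2 was 65.5 FPKM, 8.89-fold that at Day -2 (log2 difference 2.85, limma adjusted p = 0.0459). At Day 1 Hamp stood at 384, 466 and 876 FPKM and at Day 3 at 306, 689.9 and 462 FPKM, levels that overlap those of adults. The 3 mice of Day 5 had 114, 313 and 7.52 FPKM, so that 1 of them was within the prenatal range. At Day 10 all 3 were low, with 3.36, 1.77 and 3.77 FPKM, and at Day 15 they had 4.09, 4.85 and 8.86 FPKM. The Day 10 mean was 257-fold below that of Day 60 (log2 difference -7.34, SE 1.13, limma adjusted p = 3.8e-06), and the Day 15 mean was 129-fold below it (log2 difference -6.56, SE 1.13, limma adjusted p = 4.47e-05).

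The return of Hamp was uneven among mice. At Day 20, the last age before weaning, 1 mouse had 1196 FPKM and the other two 30.6 and 24.6 FPKM, all above every mouse of Day 15. At Day 25 the mice had 199, 828 and 353 FPKM, and at Day 60 they had 379, 439 and 1472 FPKM. Hamp did not pass the test from Day 20 to Day 25 (log2 difference 1.98, SE 1.13, limma adjusted p = 0.361), and the high mouse of Day 20 decides this, since without it the log2 difference was 3.77 (limma adjusted p = 0.0212). Ordered by mean, the ages ran from Day 60 (763 ± 614 FPKM, SD, n = 3) to Day 10 (2.97 ± 1.06, SD, n = 3), and of the 11 neighbouring pairs in that order only Day 15 and Day 10 did not overlap. From Day 25 to Day 60, Hamp did not differ from its Day 60 level at any age by the limma test (adjusted p from 0.577 to 0.951).

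Hamp2, the second hepcidin gene of the mouse, whose peptide is not known to act on iron as that of Hamp does, did not share the first wave. Its highest value in any mouse from Day -2 to Day 5 was 1.12 FPKM, and 1 mouse of Day -2 was listed at 0. Its change at birth was not detectable (log2 difference 0.31, SE 0.68, limma adjusted p = 0.727). At Day 10 the mice had 0.881, 1.29 and 1.88 FPKM and at Day 15 they had 2.53, 10.6 and 12.6 FPKM, without overlap. At Day 20 they had 1016, 73.7 and 41.3 FPKM, and the highest was the same mouse that was highest for Hamp. The mean was greatest at Day 25, at 230.4, 865 and 468 FPKM, and each of these was above each mouse of Day 30 (153, 106 and 75.7 FPKM). At Day 60 Hamp2 had 56.9, 107 and 178 FPKM, and its excess at Day 25 over Day 60 just missed the threshold (log2 difference 2.13, SE 0.68, limma adjusted p = 0.0522). All 7 ages up to Day 15 were below Day 60, with log2 differences from -6.49 to -3.66 and limma adjusted p of at most 0.000126.

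**Figure D1:**
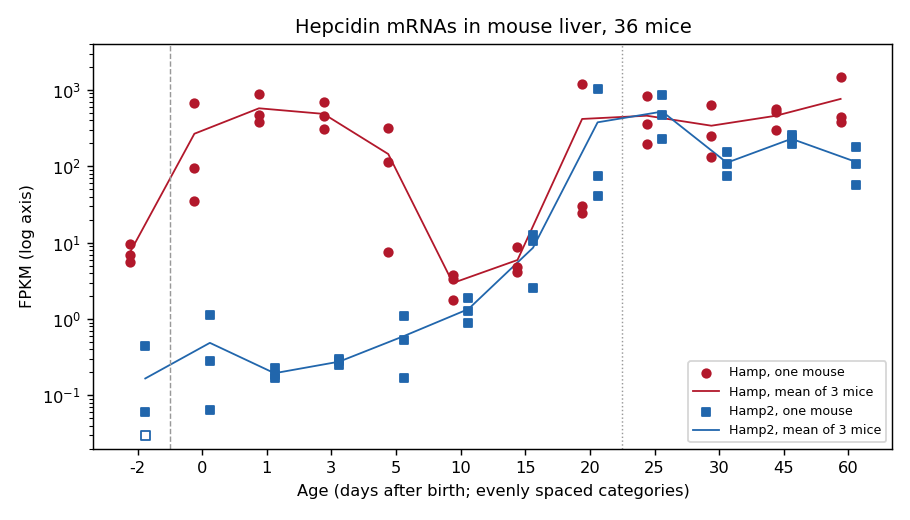
FPKM of Hamp (circles) and Hamp2 (squares) in each of 36 mice by age in days, on a log axis, with lines through the means of 3 mice; the dashed and dotted lines mark birth and weaning, and the open square is the mouse listed at 0. Hamp is high at Days 1 and 3 while every Hamp2 value stays below 1.12 FPKM, both are low at Day 10, and both are high from Day 25 on.

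The make-up of the hepcidin mRNA differed between ages. Hamp2 made up 0.0391% ± 0.017 (SD, n = 3) of the summed FPKM at Day 1 and 1.01% ± 1.05 at Day 5. The share was 32.1% ± 10.8 at Day 10, 55.2% ± 15.4 at Day 15 and 59.8% ± 12.6 at Day 20, where 2 of 3 mice had more Hamp2 than Hamp. It was 53.9% ± 2.95 at Day 25 and 14.5% ± 4.58 at Day 60, and the 3 mice of Day 5 (0.346% to 2.22%) did not overlap those of Day 10 (20.8% to 42.3%). Averaged over ages, the share was 24.7% in suckling (6 ages) and 32.8% after weaning (4 ages), a difference that did not pass (two-sided exact permutation test over age means, p = 0.59, adjusted over 2 shares p = 0.59).

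Among mice of the same age, the 2 hepcidin mRNAs moved together. After each value was centred on its age mean, Hamp and Hamp2 had Pearson's r = 0.723 (n = 36 mice, permutation within ages p = 0.00097) and Spearman's rho = 0.612 (permutation p = 0.00251). In all, 99 relations among the 9 genes and 7 marker sums were computed, and the adjusted p over them was 0.0398 for r and 0.0455 for rho. Without the 2 mice farthest from the centre of Hamp, r was 0.633. By r, 6 of the 99 relations had an adjusted p under 0.05. Hamp2 with Ftl1 was among them (r = 0.43, permutation p = 0.00234, adjusted p = 0.0398). By rho that pair failed (0.486, permutation p = 0.00856, adjusted p = 0.0942). Hamp and the erythroid marker sum passed by rho (-0.538, permutation p = 0.00322, adjusted p = 0.0455). By r they did not (-0.364, permutation p = 0.0154, adjusted p = 0.137). Tfrc had r = -0.585 against Hamp (permutation p = 0.0138, rho = -0.49 with permutation p = 0.0166), but this failed the adjustment (adjusted p = 0.137 for r and 0.149 for rho) and r was -0.42 without the 2 farthest mice. Against Hamp2, Tfrc had r = -0.573 (permutation p = 0.0124, adjusted p = 0.137), and -0.547 without the 2 mice farthest in Hamp2. Its rho against Hamp2 passed (-0.577, permutation p = 0.00217, adjusted p = 0.0455). Hamp and the acute phase marker sum gave r = 0.365 (permutation p = 0.154, adjusted p = 0.608; rho = 0.308, permutation p = 0.122, adjusted p = 0.467) and r = 0.388 without 2 mice. By age mean the acute phase sum was mostly Fgb (2548 FPKM at Day 0 and 1461 at Day 60), while Saa1 was at 0.108 and 26.7 FPKM. The mice that stood out in Hamp at Day 20 and Day 5, chosen after their values were seen, also stood out in Tfrc. The Day 20 mouse with 1196 FPKM of Hamp had 1.76 FPKM of Tfrc, the lowest of that age, and the Day 5 mouse with 7.52 FPKM of Hamp had 28.2 FPKM of Tfrc, the highest of that age.

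**Figure D2:**
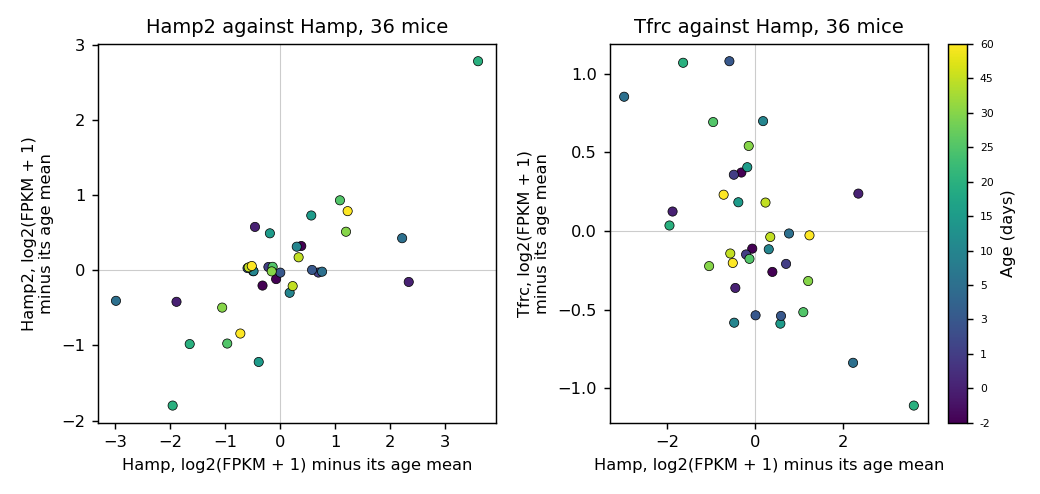
Hamp2 (left) and Tfrc (right) against Hamp in 36 mice, each as log2(FPKM + 1) minus the mean of its age, coloured by age in days. Hamp2 rises with Hamp (r = 0.723), Tfrc has r = -0.585, which failed the adjustment, and the slope rests partly on the mice at the edges, with the Day 20 mouse at the far right of both panels.

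Bmp6 and Hfe2 act before hepcidin, the first as its main activating ligand and the second as the co-receptor hemojuvelin. Bmp6 was low throughout. It had 0.437, 0.309 and 0.262 FPKM at Day -2 and 0.757, 0.754 and 0.593 at Day 0, without overlap, a rise of 2.09-fold (log2(FPKM + 1) difference 0.35, SE 0.13, limma adjusted p = 0.0271). Leaving out any 1 of 4 of these mice ended that call (limma adjusted p from 0.0649 to 0.0846). After 0.961 ± 0.24 FPKM at Day 1 (SD, n = 3) it was at 0.332 ± 0.0273 at Day 10, the same age at which Hamp was lowest, and at 1.1, 1.46 and 1.93 FPKM at Day 60. Bmp6 passed the filter of 1 FPKM only through Day 60, so its difference from Day 60 at 10 of 11 ages is partly set by that filter. Day 45, at 0.872, 0.904 and 0.799 FPKM, was the exception (limma adjusted p = 0.346), although all 3 mice of Day 60 were above it.

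Hfe2 had 13.5, 15 and 13.6 FPKM at Day -2 and 19.7, 26.1 and 30.2 FPKM at Day 0, a rise of 1.8-fold without overlap (log2 difference 0.79, SE 0.17, limma adjusted p = 0.000322). At Day 15 it had 15.8, 18.5 and 22.5 FPKM, below Day 60 (limma adjusted p = 0.00842, but 0.0859 without the highest mouse of Day 60 and 0.0705 without the lowest of Day 15). From Day 20 (21.7, 21.4 and 24.6 FPKM) to Day 25 (34.8, 33.2 and 35.2 FPKM) it rose 1.53-fold, again without overlap (log2 difference 0.59, SE 0.17, limma adjusted p = 0.028), although leaving out any 1 of 5 of the 6 mice ended the call (limma adjusted p from 0.0625 to 0.103). Bmp6, Hfe2 and Hamp all rose at birth and all were below Day 60 at Day 15, but in size Hamp moved by far the most, with 257-fold between its highest and lowest age means against 4.51-fold for Bmp6 and 2.45-fold for Hfe2.

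Transferrin, the product of Trf, is the iron carrier that hepatocytes secrete. Trf rose from 1151, 1473 and 1178 FPKM at Day -2 to 15967, 14083 and 13207 FPKM at Day 0, an 11.4-fold increase (log2 difference 3.51, SE 0.14, limma adjusted p = 1.06e-17). At Day 3 it had 6411, 5188 and 4266 FPKM, below Day 60 (log2 difference -0.65, limma adjusted p = 0.000178). At Day 15, its highest age, it had 15654, 16171 and 17747 FPKM, above Day 60 (log2 difference 1.01, limma adjusted p = 1.61e-06). From Day 25 on the age means stayed between 8218 and 9262 FPKM. The summed FPKM of 8 hepatocyte markers, among them Alb and Ahsg, moved with Trf at birth, from 10830.3 to 12046 at Day -2 to 64421 to 74627 at Day 0, and was 77244 to 85377 at Day 3. Within that sum, mean Alb was 25672 FPKM at Day 0 and 13936 at Day 3, lower at the latter as Trf was, while mean Ahsg went from 26737 to 40198 FPKM. In bulk liver, more cells of a type and more RNA per cell cannot be told apart.

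Tfrc, which encodes the receptor that takes up transferrin-bound iron, had 109, 69.7 and 77.4 FPKM at Day -2 and 14.5, 13.3 and 9.21 FPKM at Day 0. The fall at birth was 6.92-fold (log2 difference -2.69, SE 0.47, limma adjusted p = 2.62e-05). Day 0 to Day 15 had means of 12.3 to 24.5 FPKM, and all 7 ages up to Day 15 were above Day 60 (limma adjusted p of at most 0.000148). At Day 20 the mice had 1.76, 11.5 and 5.11 FPKM, and from Day 25 to Day 60 no mouse exceeded 3.31 FPKM. The step from Day 20 to Day 25 did not pass (log2 difference -1.16, SE 0.47, limma adjusted p = 0.145), and it did without the Day 20 mouse with high Hamp (-1.72, limma adjusted p = 0.0241). Erythroid precursors carry much of the transferrin receptor of fetal liver, and the sum of 10 erythroid markers, among them Klf1 and Slc4a1, fell with Tfrc from 3333 to 4151 FPKM at Day -2 to 1330.0 to 1861 at Day 0. At Day 15 the erythroid sum was 51.9 to 73.6 FPKM, most of it Alas2 (mean 57.2 FPKM), while Tfrc was at 15.6, 18.4 and 8.75 FPKM. At Day 60 the sum was 66.1 to 72.6 FPKM, nearly all of it Alas2 (mean 68.1 FPKM), while Tfrc was at 2.09, 1.29 and 1.58 FPKM. By mean each of the other erythroid markers was lower at Day 60 than at Day 15, to unlike degrees. The defining marker Slc4a1 was at 3.44 FPKM at Day 15 and 0.211 at Day 60, and Klf1 at 1.37 and 1.03 FPKM. What part erythroid cells had in the level of Tfrc was not tested. Among mice of the same age the relation of Tfrc with the erythroid sum did not pass (r = -0.0347, permutation p = 0.881, adjusted p = 0.938; rho = 0.0613, permutation p = 0.776, adjusted p = 0.931).

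Slc40a1, which encodes ferroportin, the iron exporter that hepcidin removes from the cell surface, went up on the first day of life. It had 26.8, 47.8 and 37.3 FPKM at Day 0 and 96.1, 80.2 and 55.1 FPKM at Day 1, a 2.07-fold rise without overlap (log2 difference 1.03, SE 0.36, limma adjusted p = 0.0321). The rise no longer passed without any 1 of 4 of these mice (limma adjusted p from 0.0779 to 0.141), among them the Day 0 mouse that held skeletal muscle RNA (log2 difference 0.82, limma adjusted p = 0.117). Slc40a1 was highest at Day 5 with 79.3, 88.2 and 90.3 FPKM with means of 32.4 ± 15 at Day 20 (SD, n = 3) and 14.9 ± 5.42 at Day 45. No neighbouring pair in its order of age means was free of overlap. Its excess over Day 60 at Days 1, 3 and 5 was 1.21, 1.33 and 1.4 on the log2 scale (limma adjusted p = 0.00481, 0.00215 and 0.00136), but with upper quartile scaling Day 1 (0.0545) and Day 3 (0.0616) no longer passed. Kupffer cells, the macrophages that recycle iron from red cells, carry much ferroportin, and the sum of 10 Kupffer cell markers was also highest early, at 373 to 403 FPKM at Day 1 against 111 to 143 at Day 60. By mean each of these markers was lower at Day 60 than at Day 1, but to unlike degrees. C1qb had 116 FPKM at Day 1 and 27.3 at Day 60, while Clec4f had 23.6 and 22.4 and Vsig4 had 7.29 and 5.71. The relation of Slc40a1 with the Kupffer cell sum within ages did not pass (r = 0.244, permutation p = 0.294, adjusted p = 0.763, and rho = 0.189, permutation p = 0.403, adjusted p = 0.87). The sum of 8 sinusoidal endothelium markers was 126 to 155 FPKM at Day 5 and 76.2 to 89.6 at Day 60. Within ages, Slc40a1 went with the endothelial sum (r = 0.573, permutation p = 0.00034, adjusted p = 0.0337; rho = 0.622, permutation p = 0.00054, adjusted p = 0.0455; r = 0.545 without 2 mice), but r was 0.224 when libraries were scaled to a common upper quartile.

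The ferritin subunits Fth1 (heavy chain) and Ftl1 (light chain) were, with Trf, the 3 most abundant mRNAs of the list by mean at every age. Fth1 had 3495, 3745 and 3241 FPKM at Day -2, 1105, 1189.6 and 1234 FPKM at Day 10, and 2319.9, 2157 and 2629 FPKM at Day 60. Its Day 10 mean was 2.01-fold below that of Day 60 (log2 difference -1.01, SE 0.15, limma adjusted p = 2.61e-06). Its excess at Day -2 over Day 60 (0.56, limma adjusted p = 0.00139) became -0.04 with upper quartile scaling. Ftl1 had 1937, 2105 and 1872 FPKM at Day -2 and 757, 749 and 858 FPKM at Day 15, where its mean was 2.99-fold below Day 60 (log2 difference -1.57, SE 0.18, limma adjusted p = 9.02e-08). From Day 20 (1193, 1020 and 1014 FPKM) to Day 25 (2456, 3548 and 2383 FPKM) Ftl1 rose 2.6-fold without overlap (log2 difference 1.36, SE 0.18, limma adjusted p = 5.3e-06). Fth1 rose 1.32-fold over the same step, also without overlap, but did not pass (limma adjusted p = 0.117). In mm9, 60.5% of the 100-base windows of the Ftl1 mRNA are shared with Gm10116, a near copy, which makes the level of Ftl1 less certain. Fth1 shared none with another protein-coding mRNA. Copies outside protein-coding mRNAs were not searched for either gene.

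The light chain accordingly took a larger part of ferritin mRNA after weaning. Ftl1 made up 36.1% ± 0.487 (SD, n = 3) of the summed FPKM of Fth1 and Ftl1 at Day -2, 39.8% ± 3.42 at Day 20 and 56.2% ± 3.2 at Day 25. Its age means lay between 35.3% and 43.3% during suckling and between 49.7% and 56.2% after weaning, without overlap. The averages were 39.2% and 52.8% (two-sided exact permutation test over 6 and 4 age means, p = 0.00952, the smallest p these numbers of ages allow; adjusted over 2 shares p = 0.019). The shares were added after values were seen, and the ages follow each other in time. A steady rise with age would also give this p, so the test cannot place a step at weaning. A share does not depend on how libraries are scaled. Within ages Fth1 and Ftl1 moved together (r = 0.614, permutation p = 0.00184, adjusted p = 0.0398; rho = 0.59, permutation p = 0.00118, adjusted p = 0.0455; r = 0.592 without 2 mice). Ftl1 and Tfrc moved in opposite directions (r = -0.525, permutation p = 0.00235, adjusted p = 0.0398, rho = -0.571, permutation p = 0.00222, adjusted p = 0.0455, and r = -0.483 without 2 mice and -0.37 with upper quartile scaling). So did Slc40a1 and Fth1 (r = -0.644, permutation p = 0.00241, adjusted p = 0.0398, and r = -0.533 without 2 mice). For Slc40a1 and Fth1 rho was -0.598 (permutation p = 0.00277, adjusted p = 0.0455).

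**Figure D3:**
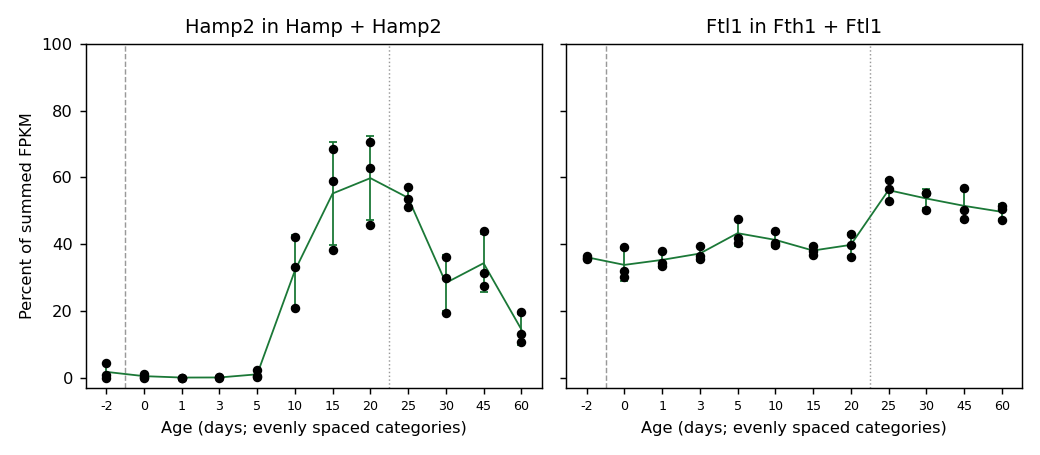
Share of Hamp2 in the summed FPKM of Hamp and Hamp2 (left) and of Ftl1 in that of Fth1 and Ftl1 (right), in percent, by age in days; points are mice and the line is the mean ± SD of 3. The Hamp2 share rises from under 3% at Day 5 to 59.8% at Day 20, and the Ftl1 share steps from 39.8% at Day 20 to 56.2% at Day 25.

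Several of these mRNAs carry iron responsive elements, hairpins to which iron regulatory proteins bind when iron is scarce. Binding near the start blocks translation of ferritin and ferroportin, and binding near the end protects the mRNA of the transferrin receptor. These act on the same mRNAs whose levels are given above, and are shown so that a reader can see which ones hold them. They were searched in GENCODE M1 transcripts (mm9) as C, 5 bases, CAGTGN and 5 bases that pair with the first 5, G with T pairs allowed, and the loop is in capitals.
Fth1, 5′ UTR, chr19:10057228-10057244, plus strand: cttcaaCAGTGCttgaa
Ftl1, 5′ UTR, chr7:52715155-52715171, minus strand: cttcaaCAGTGTttgaa
Slc40a1, 5′ UTR, chr1:45982316-45982332, minus strand: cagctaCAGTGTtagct
Tfrc, 3′ UTR, chr16:32631311-32631327, plus strand: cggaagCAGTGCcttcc
Tfrc, 3′ UTR, chr16:32631690-32631706, plus strand: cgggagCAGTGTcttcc
Tfrc, 3′ UTR, chr16:32631755-32631771, plus strand: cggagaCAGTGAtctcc
Tfrc, 3′ UTR, chr16:32631802-32631818, plus strand: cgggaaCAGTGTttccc

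Such an element was found in the 5′ UTR of 33 of 19854 genes (0.166%) and in the 3′ UTR of 124 of 19915 (0.623%). Of the 9 genes, Fth1, Ftl1 and Slc40a1 had 1 each and Tfrc had 4, and Hamp, Hamp2, Trf, Hfe2 and Bmp6 had none of this form. Protein levels were not measured here.

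**Figure D4:**
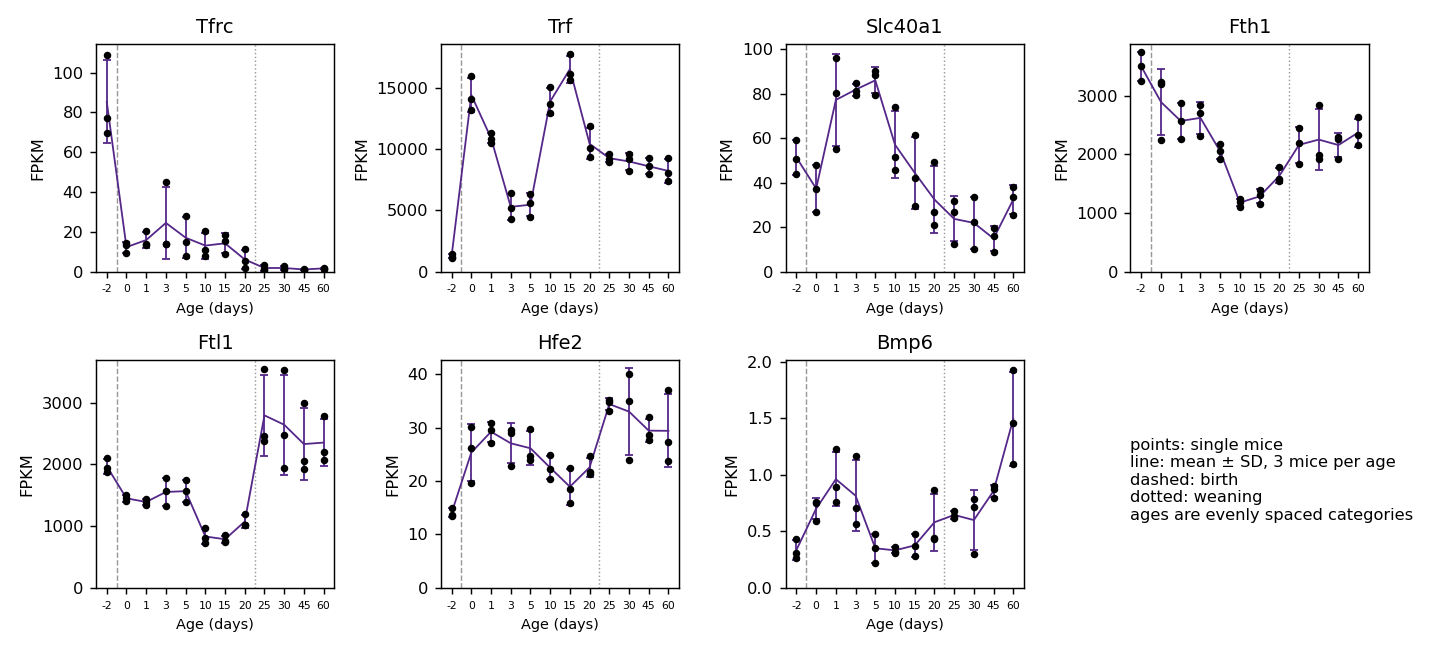
FPKM of Tfrc, Trf, Slc40a1, Fth1, Ftl1, Hfe2 and Bmp6 in each mouse (points) with the mean ± SD of 3 mice per age (line), by age in days; each panel has its own axis from 0. Tfrc drops at birth, Trf has peaks at Day 0 and Day 15, Slc40a1 is highest at Day 5, and Fth1 and Ftl1 have their lowest means at Day 10 and Day 15.

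Taking the steps in turn, 6 of the 9 genes changed from Day -2 to Day 0, when 54.6% of all tested genes did. Hamp, Trf, Hfe2 and Bmp6 rose, and Tfrc and Ftl1 fell. The fall of Ftl1 (log2 difference -0.44, limma adjusted p = 0.0437) lost its call without any 1 of the 6 mice concerned (limma adjusted p from 0.0588 to 0.119). From Day 0 to Day 1, Slc40a1 rose and Trf fell (1.32-fold, limma adjusted p = 0.0301, but 0.0546 to 0.11 without any 1 of 4 mice), and 31.6% of all genes changed. Across weaning, from Day 20 to Day 25, Ftl1 and Hfe2 rose, 2 of 9 where 7.19% of all genes were called. Between the mean of the 6 suckling ages and that of the 4 later ages, 8 of the 9 differed, against 79.7% of all genes. One of the 8 is Bmp6, which passed the filter only through Day 60, an age of the later group, so its call here is partly set by the filter. Of the other 8 genes, 7 differed. Tfrc (9.41-fold higher mean FPKM) and Slc40a1 (2.72-fold) were higher in suckling. Hamp (1.86-fold lower mean FPKM), Hamp2 (3.77-fold), Fth1 (1.18-fold), Ftl1 (2.11-fold), Hfe2 (1.29-fold) and Bmp6 (1.58-fold) were lower, and Trf did not pass (log2 difference 0.12, limma adjusted p = 0.0893) and was lower under upper quartile scaling (-0.30). On the log2 scale, where 1 mouse with a high value weighs less than in a mean of FPKM, the difference was -2.82 for Hamp and -5.41 for Hamp2. For this comparison the median log2 difference was 0.386 over all tested genes and -0.304 over the 9, and upper quartile scaling brought the former to 0.13.

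Compared with Day 60 one age at a time, 51 of 99 pairs of gene and age were called, to be read against the shares of all tested genes given for each age below. Bmp6 was called at every age but Day 45, and its calls are partly set by the filter, as said above. At Day -2, 7 of the 9 differed (75.1% of all tested genes), at Day 0 it was 5 (63.9%), at Day 1 and Day 3 it was 6 each (65.0% and 66.0%), and at Day 5 it was 7 (65.4%). At Day 10, 7 of the 9 differed where 46.0% of all genes did, and at Day 15 it was 8 of 9 (7 of 8 without Bmp6) where 27.4% did. Day 15 was the age at which the share of iron genes called lay farthest above that of all genes, with Slc40a1 the exception (limma adjusted p = 0.467). At Day 20 the number was 3 (15.9% of all genes), namely Fth1, Ftl1 and Bmp6, all lower than at Day 60, the first no longer so without the Day 60 mouse highest in Fth1 (limma adjusted p = 0.0697) or the first Day 20 mouse (0.0501). At Days 25 and 30 it was Bmp6 alone (7.42% and 3.56%). At Day 45 limma called none of the 9 and 0.233% of all genes, with 2 of the 9, Slc40a1 and Bmp6, at an unadjusted p under 0.05.

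**Figure D5:**
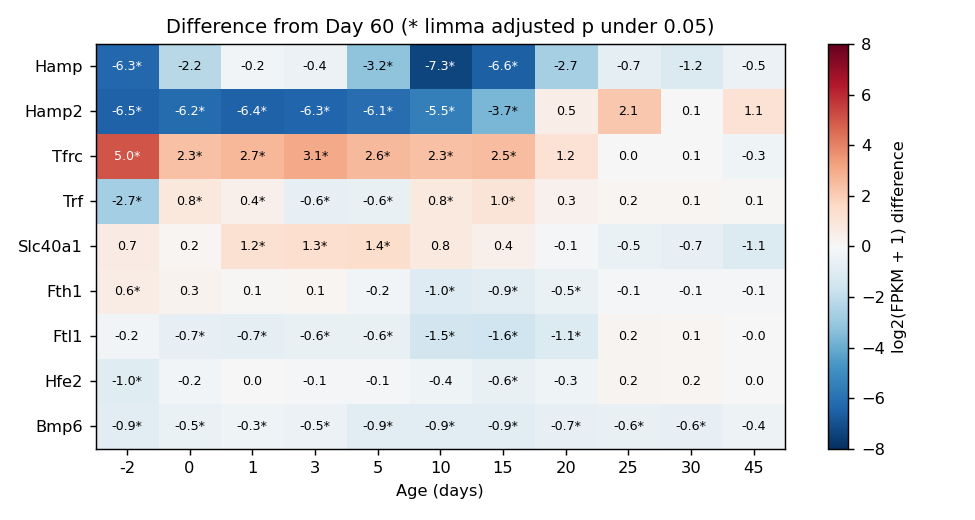
Difference in mean log2(FPKM + 1) of each age from Day 60 for the 9 genes (rows) at 11 ages (columns, days), with red for higher and blue for lower and * for a limma adjusted p under 0.05. Hamp is blue at Day -2 and again at Days 10 and 15, Hamp2 is blue up to Day 15, and Tfrc is red up to Day 15.

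A few libraries stood apart in ways that touch these values. The first Day 0 mouse, with 670.4 FPKM of Hamp, also held RNA of skeletal muscle, with a sum of 10 muscle markers of 1400.4 FPKM against 5.65 and 5.36 in its age mates, and had the highest acute phase sum of its age (4410.4 FPKM against 3094 and 2275). Without it the Day 0 mean of Hamp was below that of Day 60 (log2 difference -3.41, limma adjusted p = 0.0141) and the rise to Day 1 passed (3.19, limma adjusted p = 0.0376). The first Day 10 mouse had a muscle sum of 95.2 FPKM against 9.44 and 1.82 in its age mates, and its Hamp of 3.36 FPKM lay between theirs. The others were the Day 20 and Day 5 mice named above, whose muscle sums (0.548 and 2.85 FPKM) and acute phase sums (1665 and 1609 FPKM) were not raised. By age mean the acute phase sum at Days 0, 5 and 20 was nearly all Fgb and Apcs, with Saa1 at 0.108, 0.772 and 8.02 FPKM. Without the Day 5 mouse, Hamp at Day 5 no longer differed from Day 60 (log2 difference -1.73, limma adjusted p = 0.184), nor did it without the Day 60 mouse with 1472 FPKM (-2.60, limma adjusted p = 0.0733). Pancreatic acinar markers, 6 in number, were erratic, with sums from 0.359 to 16450.4 FPKM at Day 60 alone, and were not related to Hamp2 (r = -0.189, permutation p = 0.59, adjusted p = 0.938; rho = -0.053, permutation p = 0.8, adjusted p = 0.931). The part of these markers in the results was not tested further.

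Beyond the 9 genes, 68 other genes of iron handling were listed by role, of which 66 were in the table and 57 were tested. Of these 57, 48 differed from Day 60 in at least 1 age, where 90.7% of all tested genes did. In suckling, 37 were higher and 11 lower than after weaning. Of all 11149 tested genes, 68.1% were higher and 11.7% lower, and the counts of the lists that follow are to be read against these shares. The 57 split differently under another scaling, as 20 were higher and 15 lower when libraries were scaled to a common upper quartile, so the balance between directions depends on the scaling. The median log2 difference was 0.351 over the 57, close to the 0.386 of all genes.

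In the list of hepcidin control, 20 of 23 genes were tested, and 13 were higher and 5 lower in suckling (68.1% and 11.7% of all tested genes). The 3 whose age means spanned the widest range on log2(FPKM + 1) were B2m, Tmprss6 and Id1. B2m, the partner chain of Hfe, had 139 ± 8.32 FPKM at Day -2 (SD, n = 3) and 1844 ± 160.0 at Day 60, and was lower in suckling (log2 difference -2.00, limma adjusted p = 6.31e-17). Tmprss6, the protease that cuts hemojuvelin and so lowers hepcidin, had 17 ± 2.45 FPKM at Day -2, 104 at Day 10 and 161 ± 23.9 at Day 60, and was also lower in suckling (log2 difference -0.68, limma adjusted p = 7.9e-09). Id1, a common target of BMP signalling, was highest at Day 1 with 16.8 ± 6.22 FPKM, had 5.19 FPKM at Day 10 and 3.07 at Day 15, and 2.73 at Day 25, an age at which Hamp was high. Fam132b, which encodes the erythroid hormone erythroferrone that lowers hepcidin, was at 2.09 FPKM at Day -2 and highest by mean at Day 0 (2.55 ± 1.86 FPKM). It was at 0.571 FPKM at Day 1, 1.73 at Day 3 and 1.76 at Day 5, ages at which mean Hamp was above its prenatal level, and at 0.0955 FPKM at Day 10.

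For uptake and reduction of iron, 12 of 15 were tested, with 8 higher and 1 lower in suckling, again where 68.1% and 11.7% of all genes were. Lcn2, which binds the iron carriers of bacteria, was highest at Day 0 with 381 ± 94.4 FPKM and lowest at Day 60 with 1.92 ± 1.46 (suckling against after weaning, log2 difference 3.12, limma adjusted p = 1.99e-19). Hpx and Hp, the plasma scavengers of heme and haemoglobin, rose at birth with log2 differences of 3.22 and 3.71 (limma adjusted p = 1.85e-11 and 6.82e-14), as Trf did. Cp, the ferroxidase ceruloplasmin and the 1 tested gene of the 5 listed for export and oxidation, had 17.9 ± 6.69 FPKM at Day -2 and 249 ± 59 at Day 15, the age at which Trf was also highest.

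For storage, chaperones and release, 5 of 6 were tested, with 4 higher and 1 lower in suckling, too few to set against those shares. Hmox1, which opens heme and frees its iron, had 109 ± 9.91 FPKM at Day -2 and 6.02 ± 0.432 at Day 45, and from Day 20 to Day 25 it fell by 0.85 on the log2 scale (limma adjusted p = 0.015). Ncoa4, the receptor that brings ferritin to lysosomes, and Pcbp2, an iron chaperone, were also highest at Day -2 (13.5 ± 5.75 and 129.5 ± 8.25 FPKM). Of the 5 iron regulatory genes, 2 were higher and 1 lower in suckling. Aco1, which encodes iron regulatory protein 1, was lower (log2 difference -0.57, limma adjusted p = 2.08e-05), and Epas1, the hypoxia factor HIF-2α, was higher (0.62, limma adjusted p = 3.51e-05), while Hif1a did not pass (0.26, limma adjusted p = 0.125). All 14 mitochondrial iron genes were tested, with 9 higher and 3 lower in suckling (68.1% and 11.7% of all genes) and 10 of them lower at Day 0 than at Day -2, where 41.4% of all tested genes were lower. Slc25a37, the mitochondrial iron importer of erythroid cells, had 315 ± 71.2 FPKM at Day -2 and 1.86 ± 0.19 at Day 45, and Abcb10 and Hscb were also highest at Day -2 (60.2 ± 5.81 and 24.2 ± 0.334 FPKM), alongside the erythroid markers and Tfrc.

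The genes whose 12 age means were most like those of each iron gene are given as a description, among the 6852 other tested genes that reached 5 FPKM at some age (6853 for Bmp6, which itself did not reach that level). For Hamp the closest were Eps8l2 (Pearson's r = 0.91), Ptpmt1 (0.878) and Gsto1 (0.872). For Hamp2 they were Prodh (0.981), Nnmt (0.981) and Cyp2c39 (0.979). The nearest to Tfrc were Rnf145 (0.979), Sub1 (0.978) and Eid1 (0.975), and to Slc40a1 they were Prkar1a (0.978), Mtor (0.977) and Efha1 (0.974). Trf was most like the secreted hepatocyte products Hgfac (0.931) and Alb (0.925) and the enzyme gene Fah (0.919). Fth1 was nearest to Slc25a39 (0.96), Gpx4 (0.958) and Slc6a9 (0.934), and Ftl1 to 1110008P14Rik (0.968), Fkbp8 (0.954) and Sdf2l1 (0.946). Hfe2 was nearest to Mosc1 (0.935), Creld1 (0.929) and Pcyt2 (0.916). The 3 nearest to Bmp6 were Cryl1 (0.859), Eps8l2 (0.843) and Hamp itself (0.812).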

How the data were processed

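The authors mapped paired reads of 100 bases from liver mRNA to mm9 with TopHat 1.2.0, estimated abundance with Cufflinks 1.0.3 with Ensembl annotation, and deposited 1 FPKM value per gene symbol and mouse. Counts were not used here. From the steps in low values of 6402 genes with 1 transcript, 33 of 36 libraries gave 73.1 to 95.5 fragments in units of 1000000 (median 81.3), so that 1 fragment on Hamp2 is worth about 0.028 FPKM. Only 32.3% to 50.2% of those values lay within 0.1 of a whole number, and no count test was run. Summed FPKM was 353712 to 450597 per mouse.

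Values were transformed to log2(FPKM + 1), and genes whose mean reached 1 FPKM at some age (11149) were fitted with limma 3.58.1 (R 4.3.3, mean-variance trend, 1 mean per age, 24 residual degrees of freedom). Adjustment was over all tested genes within a comparison, and over genes and 11 comparisons for any age. The fit was tested on simulated data. Permutations within ages numbered 100000. Python 3.11.15, numpy, pandas, scipy and matplotlib did the rest. Named genes are the 9 found, the 3 of each role list with the largest range of age means, and the 3 most alike each member. The iron genes and role lists were chosen with earlier results of these data known. Fam132b was named, and shares and relations between mice were added, after values were seen. Alternatives were a pseudocount of 0.1, no filter or a filter at 5 FPKM, upper quartile or TPM scaling, no trend, a replicate block, and each mouse left out. Positions are from GENCODE M1 by symbol. Trf has 2 records there, and 19% of the 100-base windows of its mRNAs are shared with Srprb.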

Additional observations from a re-analysis of the deposited data

How the results depend on the processing

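Of 135 pairs of gene and comparison, the replicate block changed no call, and the counts stayed at 51 pairs called, 8 genes for suckling and 6 at birth. Every age holds each replicate number once, so the block cannot change a log2 difference or its direction, only its error. Replicate numbers were not taken to pair the mice. Deviations of same-numbered mice of different ages had a mean correlation of 0.0978, with single pairs from -0.68 to 0.829, against -0.0477 for differently numbered mice. Leaving out the mean-variance trend also changed no call. Upper quartile scaling changed most, reversing the direction of 5 of 135 pairs, where pairs called in neither setting were not counted. It gave Trf -0.07356 at Day 1 against Day 60 and -0.2959 in suckling, Fth1 -0.04295 at Day -2 and -0.4821 at Day 3 against Day 60, and Hfe2 -0.4551 at Day 1 against Day 60, on the log2 scale, with 20 other iron genes higher in suckling. The count of the 9 genes changed from Day 0 to Day 1 was 1 without a filter and 1 with TPM scaling. When single mice were removed, one at a time, pairs called against Day 60 ranged from 47 to 54, genes changed at birth from 4 to 6, from Day 0 to Day 1 from 0 to 2, from Day 20 to Day 25 from 1 to 4, and in suckling from 8 to 9. The rise of Hfe2 from Day 20 to Day 25, the fall of Ftl1 at birth and the rise of Bmp6 at birth each fell short of the threshold without any of several single mice. The difference in Ftl1 share lay between -12.97 and -14.09 percentage points and in Hamp2 share between -6.676 and -9.214. Beyond upper quartile scaling, the cause of these changes was not tested.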
